A study of Mus musculus with 65 samples.

Results

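The reads described here carried an insertion with a net length of 20 bp or more at a Cas9 cut site in mouse hepatocyte DNA. They were chosen by that length alone, which is the number of inserted bases minus the number of template bases lost. Of 828461 reads in 65 amplicon libraries, 18400 met the rule, or 2.22% of all reads and 5.66% of the 325230 reads with an indel. The sgRNA libraries held 18373 of them in 44 libraries, and the libraries of mice given the empty vector held 27 in 21 libraries.

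Genomic DNA came from liver, labelled as hepatocytes, of Rosa-LSL-Cas9-EGFP mice, whose Cas9 and EGFP stay silent until Cre removes a stop cassette. The Cre source is not named in the labels, and genomic DNA carries no marker by which the cell type could be checked. Adeno-associated virus (AAV) was given by retro-orbital injection, either with an empty sgRNA cassette (EV) or with sgRNAs, and each cut site was amplified by PCR and sequenced. The arm labelled KO covered 17 sites in 7 targets at 2 weeks post injection (wpi), with further libraries of EGFP-sg1 at 1 and 3 wpi, of the 3 Kif11 sites at 8 wpi and of both Fah sites at 3 wpi. The Lats1 and Lats2 sites were cut in an arm labelled coinjection (2 and 3 wpi) and in an arm labelled PTG, an abbreviation the labels do not spell out (2, 3 and 6 wpi). EV libraries of all 21 sites were from 2 wpi. Every combination of arm, site and time was 1 library, so time or arm and the animal cannot be told apart, and the tests below compare libraries. The labels do not say which sites came from the same animal. Libraries held 2290 to 27974 reads (median 12621), and exact binomial intervals (95%) cover counting error only, because reads were not tagged by molecule before PCR and several can stem from 1 cell.

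Cas9 makes a double-strand break that cells reseal mostly by end joining, which leaves short insertions and deletions. A broken end can also be joined to a free piece of DNA before it is resealed. Pieces of an AAV vector, of plasmid or of the genome are known to be captured at nuclease cuts in this way. The tables give the position and length of each insertion and not its bases, so the origin of the inserted DNA was not analysed here.

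The targets were Hnf4a, a transcription factor of hepatocyte identity (chr2:163506811-163572907), Kif11, a mitotic kinesin (chr19:37376382-37421863), and Fah, the last enzyme of tyrosine breakdown (chr7:84585159-84605942). Polg (chr7:79446231-79467911) and Polg2 (chr11:106768204-106779537) encode the catalytic and accessory subunits of the mitochondrial DNA polymerase. Tfam (chr10:71225468-71238328) encodes a protein that packages mitochondrial DNA and activates its transcription. Lats1 (chr10:7681200-7716461) and Lats2 (chr14:57689662-57746212) encode kinases of the Hippo pathway, and EGFP is part of the Cas9 transgene. These are gene spans in the mm10 assembly (GRCm38). Positions of the cuts within the genes, exonic or intronic, were not analysed here.

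Large insertions were present at all 21 cut sites with an sgRNA and were near 0 with the empty vector. In the KO libraries at 2 wpi their share of all reads ran from 0.0673% (Tfam-sg2-3) to 15.97% (Hnf4a-sg1), with a median of 2.89% over 17 sites. In the EV libraries 10 sites had no such read, which allows shares of up to 0.0156% to 0.102%, and the other 11 had 1 to 5 reads each. The EV reads made 26 combinations of site, template edges and net length. Of these, 21 were also found in an sgRNA library of the same site, and the cause was not tested. The highest EV share was 0.131% at Kif11-sg2, from 3 of 2290 reads (interval 0.0270% to 0.382%).

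Hnf4a and Kif11 had the highest shares, but not at every site. At Hnf4a-sg1, 1754 of 10982 reads carried a large insertion (15.97%, interval 15.3% to 16.7%), against 1 of 18241 reads with EV. At Hnf4a-sg2 the share was 12.8% (12.2% to 13.4%), while at Hnf4a-sg3 it was 2.32% (2.07% to 2.60%). The intervals of these 3 sites of 1 gene did not overlap.

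Kif11-sg1 reached 11.3% (10.8% to 11.7%) and Kif11-sg3 9.33% (8.36% to 10.4%). Kif11-sg2 was lower, at 3.53% (3.15% to 3.94%). EGFP-sg1 held 7.87%, Fah-sg1 7.57% and Fah-sg2 4.46%. As a share of all reads, the sites of the mitochondrial polymerase lay in a narrow band. Polg-sg1, sg2 and sg3 gave 1.91%, 2.46% and 1.76%, and Polg2-sg1, sg2 and sg3 gave 2.86%, 2.40% and 2.89%. Hnf4a-sg3 (2.32%) and Lats1-sg1 with coinjection at 2 wpi (1.95%) lay in the same band. Among indel reads the polymerase sites spread from 1.90% (Polg-sg3) to 5.69% (Polg-sg2).

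The lowest values came from Tfam and Lats2-sg2. Tfam-sg1 had 34 reads (0.309%, interval 0.214% to 0.432%), and the Tfam-sg2-3 amplicon had 11 of 16335 (0.0673%, 0.0336% to 0.120%) although 15882 of its reads carried an indel. The label of that amplicon joins sg2 and sg3, and few of its indel reads were insertions. Large insertions were 1.39% of its insertion reads and 0.0729% of its indel reads over 1 bp. In the coinjection arm at 2 wpi Lats1-sg1 gave 1.95%, Lats1-sg2 2.91%, Lats2-sg1 1.51% and Lats2-sg2 0.158% (0.100% to 0.237%).

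**Figure D1:**
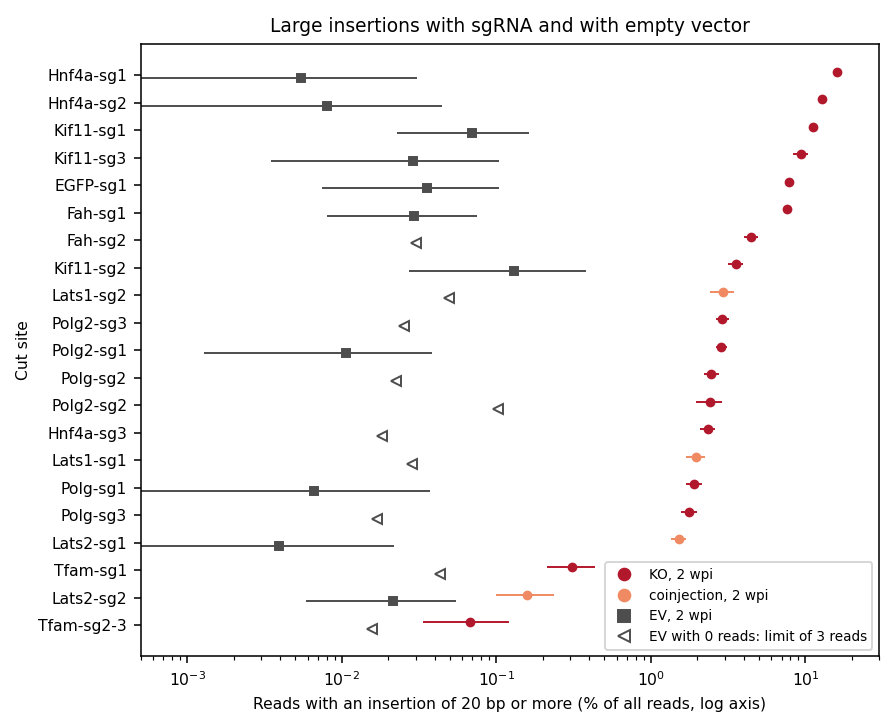
Share of all reads with an insertion of 20 bp or more at 21 cut sites at 2 wpi, on a log axis, for sgRNA libraries (circles) and EV libraries (squares), 1 library per point with exact 95% intervals. Open triangles mark the share that 3 reads would make in EV libraries with none. The sgRNA point lies to the right of the EV point or limit at every site, from 0.0673% at Tfam-sg2-3 to 15.97% at Hnf4a-sg1.

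All 21 sites had a higher share with sgRNA than with EV by two-sided Fisher's exact tests adjusted over the 21 sites. This count reads little by itself, since the same test called 99% of comparisons for 5 other indel classes. The libraries also differed in read structure. The commonest end of unedited reads lay later with EV at all 21 sites, by 2 bp at 20 of them, and the cause was not tested. With 1 mean value per target, sgRNA exceeded EV by 4.48 ± 3.63 points (SD, n = 9 targets), above 0 in 9 of 9 targets. The exact sign-flip p was 0.00391, the smallest that 9 targets can give. Sign-flip tests take targets as independent, here and below, whereas the labels do not say which targets share animals. With the PTG library at 2 wpi in place of coinjection, Lats2-sg2 exceeded EV by only 0.00291 points and was not called (adjusted p = 1, Fisher's exact test). Unedited reads include those of cells that never received the vector, so in shares of all reads fewer edited cells and fewer large insertions per edited cell cannot be told apart.

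Among reads with an indel, the range between sites was again wide. The share in KO libraries at 2 wpi ran from 0.0693% (Tfam-sg2-3) to 18.6% (Hnf4a-sg1), with a median of 4.70%. The lowest value after Tfam-sg2-3 was 1.21%, at Tfam-sg1. It was above 10% at 4 sites (Hnf4a-sg1, Hnf4a-sg2, Kif11-sg1 and Kif11-sg3) and under 3% at 6. At Hnf4a-sg1 large insertions made up 52.2% of all insertion reads, against a median of 8.36% over the 17 sites. Once 1 bp insertions and deletions were set aside, they made up 38.3% of the remaining indel reads at Kif11-sg1, the highest value, and a median of 18.9%.

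The lengths formed a separate group. Of 195740 insertion reads in the sgRNA libraries, 164866 (84.2%) were 1 bp long and 9722 were 2 bp. Lengths of 6 to 9 bp were the rarest of the short classes, with 42 reads per bp of length, and 10 to 19 bp had 43.7. The density then rose to 161 reads per bp at 20 to 29 bp, 314 at 30 to 39 bp and 608 at 40 to 49 bp. It was 366 at 50 to 59 bp and 92.7 at 60 to 79 bp.

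The threshold lies on the lower slope of this group. Lengths of 18 and 19 bp had 35 and 56 reads, and 20 and 21 bp had 61 and 63. The median large insertion was 47 bp long, 53.0% were 40 to 59 bp and 36.5% were 43 to 51 bp. Insertions of 100 bp or more made up 7.47%. The longest was 203 bp, at Polg2-sg3.

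The read length sets an upper limit. The longest read in any table ended at base 473, so the longest insertion that a read could show was 113 to 213 bp, depending on the amplicon. Of the large insertions with sgRNA, 195 reads ended at base 460 or later. What lies beyond that limit was not analysed here.

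**Figure D2:**
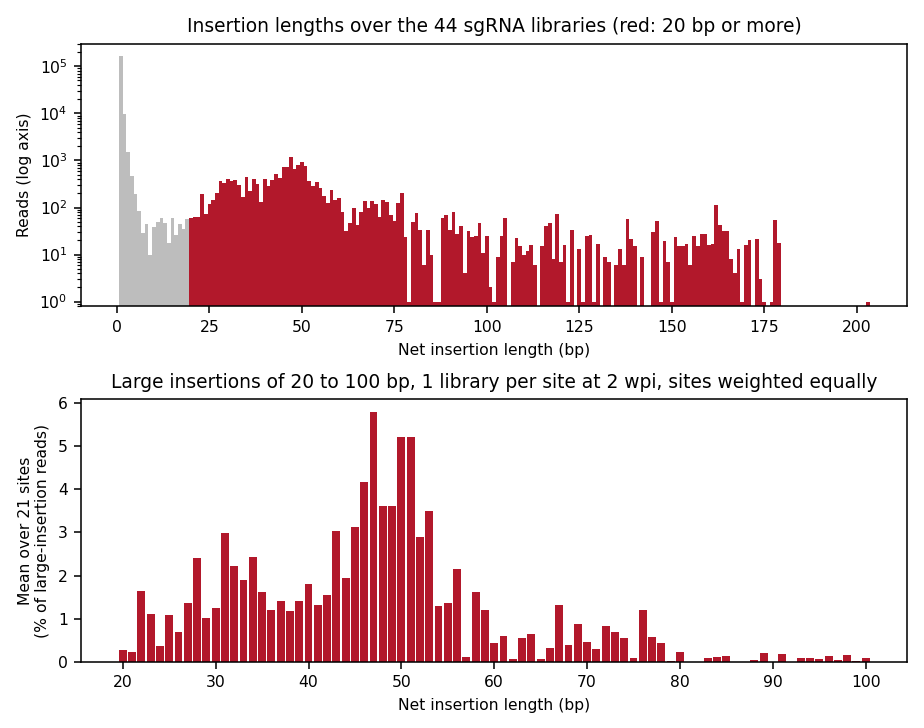
The upper panel gives reads per net insertion length (bp) over the 44 sgRNA libraries on a log axis, with 20 bp or more in red. The lower panel gives the share of large-insertion reads at each length from 20 to 100 bp, averaged over 21 sites at 2 wpi with each site weighted equally. Reads per bp dip between 6 and 19 bp, peak again between 43 and 51 bp and are sparse above 80 bp.

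The same lengths recurred at different sites. A 51 bp insertion was seen at 20 of 21 sites (775 reads), a 44 bp one at 19 and a 47 bp one at 18 (1165 reads). The other lengths among the 10 most widespread were 46, 43 and 52 bp at 18 sites each, and 48, 49, 45 and 31 bp at 17 each. With sites weighted equally, 47 bp took 5.79% of a site's large insertions and 51 bp took 5.22%. All but the 31 bp insertion lie between 43 and 52 bp.

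The peak was shared by most libraries with 100 or more large insertions, which numbered 31 and covered 19 sites. Their median length ran from 34 bp (Lats1-sg2, coinjection, 2 wpi) to 73 bp (Lats2-sg1, coinjection, 3 wpi) and fell within 40 to 59 bp in 29 of 31. The commonest length lay between 43 and 51 bp in 20 of 31. The share at 40 to 59 bp was 22.7% to 80.2% (median 51.2%), highest at Hnf4a-sg3.

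Some libraries departed from it. Lats2-sg1 with coinjection at 3 wpi held 28.3% of its large insertions at 100 bp or more, and its commonest length was 162 bp, with 90 of 371 reads. The same site and arm at 2 wpi had a commonest length of 51 bp (94 of 346 reads) and 8.38% at 100 bp or more. Hnf4a-sg2 held 18.96% at 100 bp or more, whereas Polg-sg2 and Polg-sg3 held 0%. At Polg-sg2 and Polg-sg3 the longest insertion a read could show was 141 and 136 bp.

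**Figure D3:**
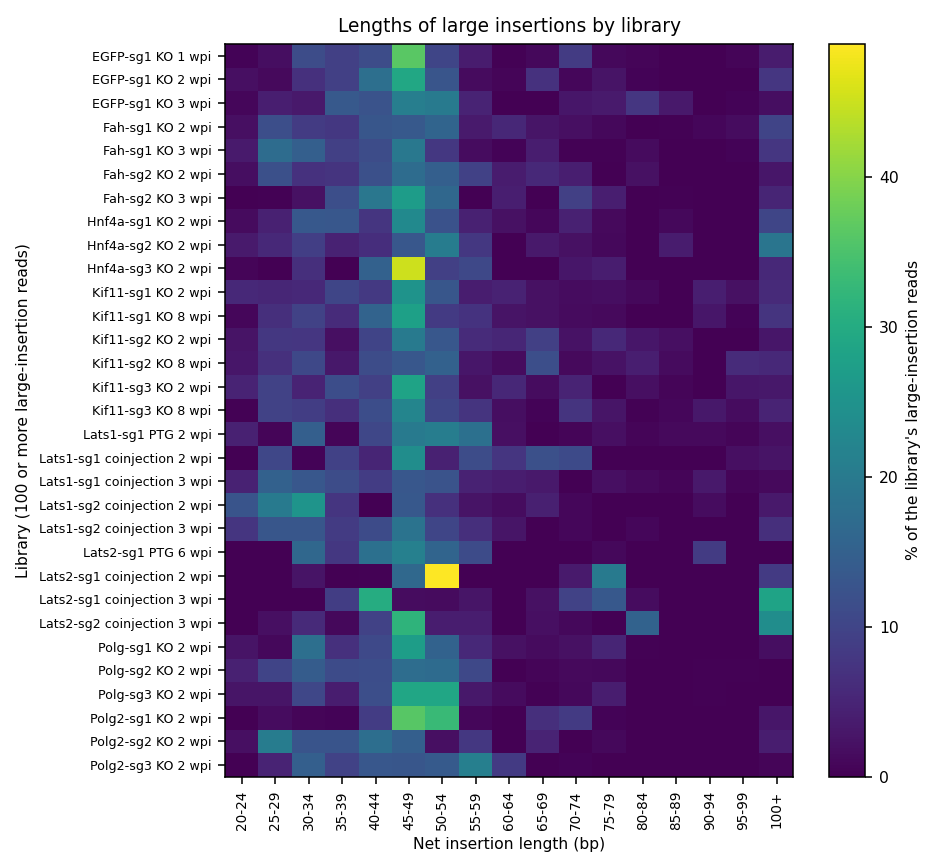
Length distribution of large insertions in the 31 sgRNA libraries with 100 or more such reads. Columns are bins of 5 bp, with 100 bp or more in the last, and colour is the percent of the library's large-insertion reads. Most libraries are brightest between 40 and 55 bp, and Lats2-sg1 with coinjection at 3 wpi has 28.3% in the last column.

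A net length that is a multiple of 3 leaves the reading frame in step if the cut is in coding sequence. Such lengths made up 31.4% of large insertions, against 33.3% if lengths had no period. Of the 31 libraries, the interval lay above 33.3% in 5, below it in 10 and covered it in 16. These intervals treat reads as independent, although reads of 1 allele can be copies of 1 molecule. With each allele counted once, the share was 16.7% to 47.4% (median 31.5%) over the 31 libraries. The extremes were Kif11-sg2 at 2 wpi (19.6%) and Lats2-sg2 with coinjection at 3 wpi (50.96%), where a single 45 bp allele held 31.7% of the reads.

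Most large insertions sat in an otherwise intact template. Of the 18373 reads, 73.6% had lost no template base at the cut, 20.4% had lost 1 to 5 bases and 5.95% had lost more. A loss of 1 base was the commonest (1201 reads), followed by 2 bases (1012 reads), and 202 reads had lost 20 bases or more, with a maximum of 67. A loss on the side before the cut only was seen in 12.9% of reads, after the cut only in 11.3% and on both sides in 2.13%. An inserted base that equals the template base next to it is aligned as template, so losses can be understated.

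The share without loss differed widely between sites. At Polg-sg3 it was 93.2% (interval 89.6% to 95.9%), at Polg2-sg3 88.2% and at Hnf4a-sg1 87.1%. Lats1-sg1 with coinjection at 2 wpi had the lowest value among libraries with 100 or more such reads, 38.3% (31.6% to 45.4%), and 60.2% of its reads had lost bases before the cut only. The later coinjection library of that site gave 50.3%, and its PTG libraries gave 58.1%, 60.7% and 52.7% at 2, 3 and 6 wpi, each with 34.8% to 47.0% lost before the cut only. All 5 libraries of Lats1-sg1 thus leaned to the same side.

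No side was favoured over all targets. Mean loss before minus after the cut was 0.14 ± 0.54 bp (SD over 9 targets), above 0 in 4 of 9, with an exact sign-flip p of 0.547. Of 20 sites with enough reads, 9 had more loss before the cut and 11 more after it. Lats1-sg1 stood highest with 2.53 bp lost before and 0.0597 bp after, and without Lats1 the mean was -0.0119 bp.

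**Figure D4:**
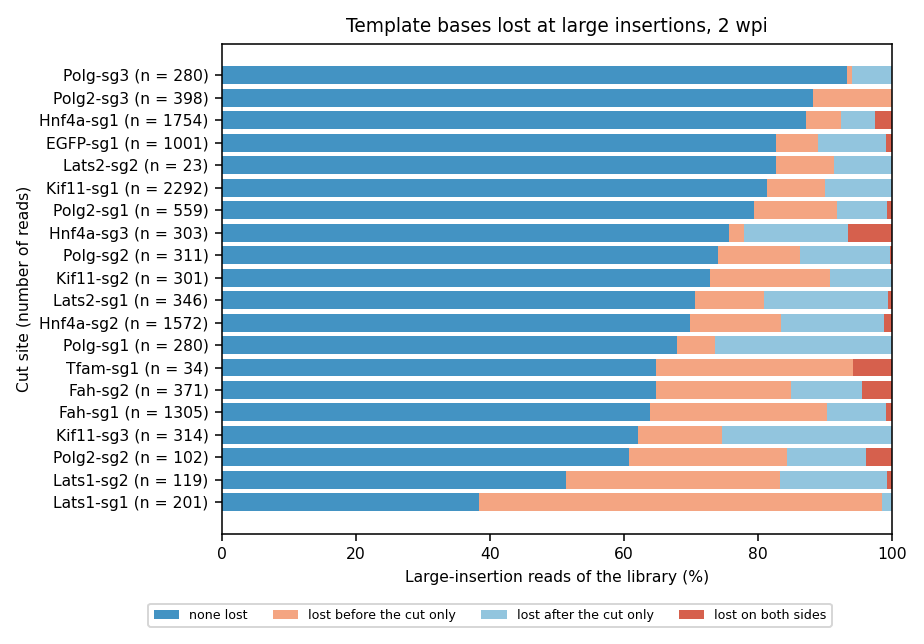
Percent of large-insertion reads with no template base lost, or with bases lost before the cut, after it or on both sides, in the 2 wpi libraries of 20 sites (number of reads in brackets). The share without loss runs from 38.3% at Lats1-sg1 to 93.2% at Polg-sg3, and loss before the cut is widest at Lats1-sg1 (60.2%).

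Large insertions were set against insertions of 2 to 19 bp of the same library, at the 20 sites with at least 20 reads of each. Net length, which split the classes, already subtracts the lost bases, so the tests below are not independent of that split. The shorter class was mostly 2 bp insertions. It held 12510 reads over all libraries, and 2 bp insertions made up 9722 reads in the sgRNA libraries. The share without template loss ran from 76.9% to 100% (median 93.5%) in the shorter class and from 38.3% to 93.2% (median 71.6%) in the large one. It was lower for large insertions at 17 sites and higher at 1 by Fisher's exact test adjusted over 20 sites. The exception was Hnf4a-sg1, with 87.1% of large against 80.2% of shorter insertions. EGFP-sg1 (82.7% against 87.6%, adjusted p = 0.0575) and Polg-sg3 (93.2% against 94.8%, adjusted p = 0.561) were not called by the same exact test.

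Over targets, taken as independent, the difference was -20.3 ± 11.3 percentage points (SD, 9 targets), below 0 in all 9, with an exact sign-flip p of 0.00391. That difference rests on how reads are shared among alleles. When each allele was counted once, it was 0.140 points (exact sign-flip p = 0.980). It also depends on the length threshold: at 30 bp, against insertions of 2 to 29 bp, it was -8.59 points (exact sign-flip p = 0.0273) with 13 sites called, and the calls at Fah-sg2, Kif11-sg1, Lats1-sg2, Polg2-sg2 and Tfam-sg1 ended, with Tfam-sg1 changing sign to 9.09 points. An allele here is a pair of template edges with a net length, so insertions of different bases and equal length count as 1 allele. All loss-free insertions of 1 length thus merge, whereas those with loss are split over different pairs of edges. This affects every count by allele.

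Alleles without loss held more reads each, which the definition of an allele favours. Over the 31 libraries with 100 or more large insertions the mean reads per allele without loss was 2.41 to 36.6 (median 11.3), against 1.75 to 18.2 (median 6.15) for alleles with loss. The first was higher in 30 of 31. Their share was 33.3% to 82.6% of a library's large-insertion alleles, with a median of 53.8%, below the median of 68.3% of reads.

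Each library held a mixture of alleles and seldom 1 dominant one. The 31 libraries had 13 to 87 large-insertion alleles (median 51), highest at Fah-sg1 at 2 wpi. These were 12.7% to 47.1% of all indel alleles of the library (median 32.0%). The commonest allele held 4.64% to 31.7% of the reads (median 7.48%). The effective number of alleles, the inverse of the sum of squared shares, was 6.68 to 46.0.

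The leading alleles were mostly insertions between 2 intact edges, which the definition of an allele also favours. Counting the commonest 2 of each library with at least 10 reads each gave 58 alleles in 30 libraries, 53 of them without template loss and 49 of them 42 to 58 bp long. At Hnf4a-sg1 an insertion of 46 bp held 131 reads, or 1.19% of all reads of the library. At Polg2-sg1 insertions of 50 and 47 bp held 19.9% and 18.8% of the large insertions. Lats1-sg1 with coinjection at 2 wpi was led by a 67 bp insertion that had lost 5 bases before the cut (24 reads).

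Kif11-sg1 had 81 alleles at 2 wpi and 54 at 8 wpi. Shared alleles numbered 26, which were 32.1% of the earlier list and 48.1% of the later one, and held 72.2% of the later reads. Over the 14 pairs of times at 1 site with 20 or more alleles in both libraries, the shared part of a list was 9.68% to 48.1% (median 26.6%). In pairs with a shorter list it ran from 0% (Lats2-sg1, PTG) to 75% (Lats2-sg2, PTG, 3 of 4 alleles). Pairs of different sites at 2 wpi, 153 in number under the same limit of 20 alleles, shared 0% to 69.6% (median 25%). Alleles defined by edges and length were thus shared between sites about as widely as between times at 1 site, and sharing of the inserted bases was not analysed here.

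The share of all reads over time followed no single direction. Of 20 comparisons of a later with an earlier library, 10 were called by Fisher's exact test adjusted over the 20, 6 higher and 4 lower, while the same test called 68% of comparisons for 5 other indel classes. At EGFP-sg1 the share was 5.77% at 1 wpi, 7.87% at 2 wpi and 8.12% at 3 wpi. The 1 wpi library lay below both later ones, which did not differ beyond counting error (adjusted p = 0.533, exact test).

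Among indel reads, which leaves out unedited DNA, 7 of 20 comparisons were called, 2 higher and 5 lower, against 55% for the 5 other classes. At EGFP-sg1 the share of indel reads was 9.39%, 8.32% and 8.66% at 1, 2 and 3 wpi, and none of the 3 comparisons was called.

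The 3 Kif11 sites changed unequally between 2 and 8 wpi. At Kif11-sg1 large insertions were 12.7% of indel reads (2292 of 18059) at 2 wpi and 8.03% (1171 of 14587) at 8 wpi, a difference of -4.66 points (95% interval -5.32 to -4.01, adjusted p = 1.3e-41, Fisher's exact test). Kif11-sg2 went from 5.90% to 5.43% (difference -1.31 to 0.335 points), which was not called. Kif11-sg3 went from 11.8% to 13.7% (0.252 to 3.70 points, adjusted p = 0.0536, exact test), which missed the threshold of 0.05. As a share of all reads, Kif11-sg1 fell from 11.3% to 6.99%, whereas Kif11-sg2 rose from 3.53% to 4.93% and Kif11-sg3 from 9.33% to 11.9%, all called.

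Both Fah sites were lower at 3 than at 2 wpi. Fah-sg1 went from 7.83% to 6.07% of indel reads (-1.76 points, or -1.11 in reads of the first tile alone), and its median length from 47 to 42 bp. Fah-sg2 went from 4.70% to 3.44% (adjusted p = 0.000131, exact test), a call that was lost when the length threshold was 30 bp (adjusted p = 0.0627, exact test). At Fah-sg1 a 29 bp insertion without loss led at 3 wpi with 99 reads.

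With coinjection, 2 of 4 Lats sites were called higher at 3 than at 2 wpi among indel reads. Lats1-sg1 went from 3.83% to 5.91% of indel reads, a difference of 2.09 points that was 1.31 at a threshold of 30 bp and 1.09 with alleles of at least 2 reads only (adjusted p = 0.0168 and 0.0499955, exact tests). Its share of all reads, 1.95% and 2.41%, was not called (adjusted p = 0.0862, exact test). Lats2-sg2 went from 0.397% (23 reads) to 1.74% (104 reads), of which 33 were a single 45 bp allele. Lats2-sg1 gave 3.83% and 3.98%, with an interval of the difference of -0.411 to 0.713 points. Lats1-sg2 gave 6.47% and 4.89% (adjusted p = 0.0600, exact test). Its share of all reads went from 2.91% to 1.87% and was called lower (adjusted p = 0.00160, exact test). That call was lost at a threshold of 30 bp (adjusted p = 0.117, exact test).

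In the PTG arm Lats1-sg2 fell from 7.37% of indel reads at 2 wpi (49 of 665) to 3.14% at 3 wpi (14 of 446) and 2.84% at 6 wpi (50 of 1760), both called against 2 wpi. As a share of all reads the same libraries gave 0.711%, 0.486% and 0.745%, with neither comparison called (adjusted p = 0.314 and 0.841, exact tests). All indel reads were 665 of 6891, 446 of 2879 and 1760 of 6707 reads. The fall in the share of indel reads to 3 wpi was not called with reads of the first of the 2 sequencer tiles alone, nor with a length threshold of 15 bp (adjusted p = 0.295 and 0.0612, exact tests). Lats1-sg1 stayed near one level, with 2.86%, 2.59% and 2.87%.

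Lats2-sg1 in the PTG arm began with few alleles. All 21 large insertions at 2 wpi were a 50 bp insertion without template loss, and the 41 at 3 wpi were 2 alleles of 47 and 43 bp. At 6 wpi there were 178 reads in 13 alleles. The share of all reads was 0.101%, 0.174% and 0.705%, with only 6 against 2 wpi called, and the share of indel reads was 1.75%, 1.48% and 2.89% (adjusted p = 0.0536 for 6 against 2 wpi, exact test).

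Lats2-sg2 in the PTG arm had 5, 9 and 13 large insertions at 2, 3 and 6 wpi, of which 5, 7 and 5 ended at base 460 or later. The EV library of that site held 4 such reads, of 157 to 162 bp. At 2 wpi the PTG share of all reads was 0.0243% (interval 0.0079% to 0.0567%), against 0.0214% (0.00583% to 0.0548%) with EV, so the intervals largely overlapped.

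**Figure D5:**
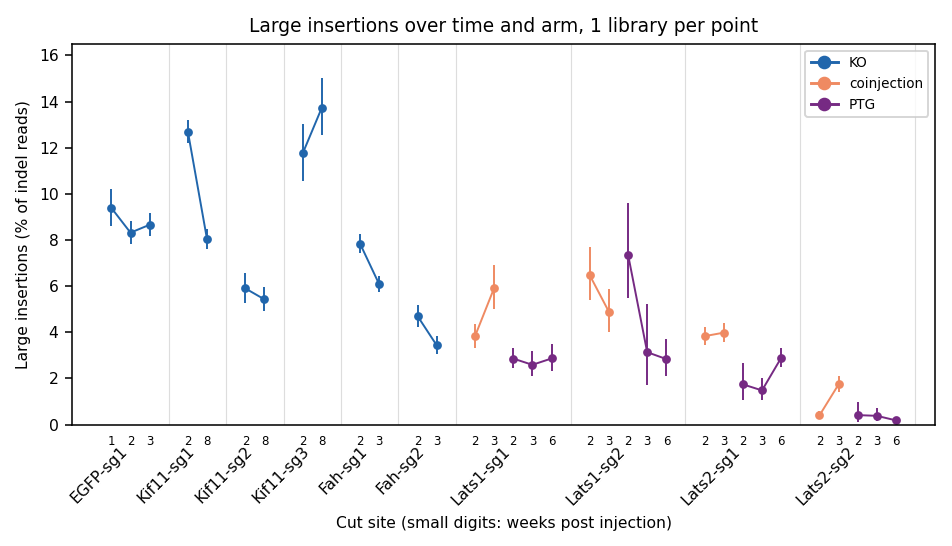
Large insertions as percent of indel reads by cut site, arm and week after injection (small digits), 1 library per point with exact 95% intervals. Kif11-sg1 falls from 12.7% to 8.03%, and PTG points lie below coinjection points at Lats1-sg1 and Lats2-sg1 at both 2 and 3 wpi.

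PTG and coinjection libraries were compared at 2 and 3 wpi at the 4 Lats sites. As a share of all reads, large insertions were lower with PTG in 8 of 8 comparisons by Fisher's exact test adjusted over the 8, against 85% called in either direction for the 5 other classes. Lats2-sg1 at 2 wpi had 21 of 20783 reads with PTG (0.101%) and 346 of 22917 with coinjection (1.51%). The highest adjusted p was that of Lats1-sg1 at 2 wpi, 1.58% against 1.95% (adjusted p = 0.0478, exact test), which was not called with a length threshold of 30 bp, without the commonest allele or with at most 5 template bases lost. At 30 bp 6 of 8 were called, since Lats1-sg1 at 3 wpi was lost as well (-0.448 against -0.759 points, adjusted p = 0.0848, exact test).

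As a share of indel reads, 5 of 8 comparisons were called lower with PTG and none was called higher, against 55% called in either direction for the 5 other classes. At Lats2-sg1 the values were 1.75% with PTG and 3.83% with coinjection at 2 wpi, and 1.48% and 3.98% at 3 wpi. At Lats1-sg1 they were 2.86% and 3.83% at 2 wpi, and 2.59% and 5.91% at 3 wpi. Lats2-sg2 at 3 wpi gave 0.381% against 1.74%.

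The comparisons not called were Lats1-sg2 at 2 wpi (7.37% with PTG, 6.47% with coinjection, difference -1.23 to 3.37 points), Lats1-sg2 at 3 wpi (3.14% and 4.89%, -3.35 to 0.471 points) and Lats2-sg2 at 2 wpi (0.412% and 0.397%, -0.293 to 0.580 points). The call at Lats1-sg1 at 2 wpi was lost with a threshold of 30 bp, without the commonest allele, without 1 bp indels in the denominator and in reads of the second tile alone. The call at Lats2-sg1 at 2 wpi was lost in reads of the first tile alone (-1.22 against -2.09 points, adjusted p = 0.223, exact test). At Lats1-sg1 at 3 wpi 18 alleles were shared by both arms, 29.03% of the coinjection list and 40.9% of the PTG list. That was the largest number. Elsewhere the arms shared 1 to 5 alleles, or 3.45% to 20.8% of the coinjection list. These were 10.6% to 100% of the PTG list, which held only 1 allele at Lats2-sg1 at 2 wpi. Pairs of different sites shared a median of 25%.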

How the data were processed

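Each deposited table lists the reads of 1 amplicon with the template and read positions on both sides of the cut, the indel length and the microhomology, per the file headers, in bp. The submitters' processing notes name bcl2fastq, Bowtie2, deepTools, R 4.2.1 and mm10, and give no step that made these tables. Tables of the Tfam-sg2 tails (170 and 14876 reads) were left out.

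Reads with a net insertion of at least 20 bp were counted per library with Python 3.11.15, pandas 2.3.3, numpy 2.4.6 and scipy 1.17.1, and figures were drawn with matplotlib 3.10.9. Differences between libraries were assessed by Fisher's exact test (two-sided), Benjamini-Hochberg adjusted within each family (threshold 0.05), and targets by exact sign-flip tests. Intervals of shares are Clopper-Pearson, those of differences Newcombe. The floor for 0 reads is 3 reads. The Fisher step was tested on simulated data. Named alleles were the 2 commonest of a library with at least 10 reads, and named lengths the 10 at most sites. The class, the sites and the tests were chosen with earlier results of these data known. Gene positions are from RefSeq (GRCm38).

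Alternatives were length thresholds of 15 and 30 bp, no commonest allele, alleles of at least 2 reads only, at most 5 template bases lost, PTG in place of coinjection, other denominators and units, each target left out and, chosen after seeing the data, no reads ending at base 460 or later and each sequencer tile alone.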

Additional observations from a re-analysis of the deposited data

Results flagged for a closer look

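Changes over time in the share of indel reads differed between libraries in 4 of 7 tests of the ratio of their odds ratios (Wald test on reads, Benjamini-Hochberg adjusted over 7, threshold 0.05). Reads are not independent molecules and each odds ratio rests on 2 libraries, so these tests compare libraries, not animals. They were not run for the other indel classes, so the count of 4 of 7 has no background share beside it.

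At Lats1-sg1 the odds ratio of 3 against 2 wpi was 0.903 with PTG and 1.58 with coinjection, a ratio of 0.571 (95% interval 0.406 to 0.804). Between 8 and 2 wpi the Kif11 sites had odds ratios of 0.600 (sg1), 0.915 (sg2) and 1.20 (sg3). The ratio of sg2 to sg1 was 1.52 (1.29 to 1.81), that of sg3 to sg1 was 1.99 (1.68 to 2.37) and that of sg3 to sg2 was 1.31 (1.05 to 1.63). The comparisons of sg1 share its libraries.

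The tests at Lats1-sg2 (0.548, interval 0.282 to 1.06), Lats2-sg1 (0.813, 0.469 to 1.41) and Fah (0.948, 0.796 to 1.13) were not called, and Lats2-sg2 was not tested because 1 library held 5 large insertions.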

How the results depend on the processing

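Of 93 counts of calls and means over targets under alternatives, 90 kept their direction and their side of the threshold, or a count within 1.5 times. The exceptions were the share without template loss, large minus shorter insertions, which was 0.140 points with each allele counted once, against -20.3 as reported; the side of template loss, which was -0.0119 bp without Lats1; and the count of calls over time among indel reads, which was 12 with at most 5 template bases lost, against 7. Their causes were not tested. At a threshold of 30 bp the share without loss was -8.59 points. The side of loss, not called under any alternative, was 0.04999 bp without the commonest allele, 0.0489 with PTG, 0.0749 at 15 bp and 0.218 with each allele counted once. Leaving out each target in turn gave 3.75 to 5.02 points for sgRNA minus EV, -22.3 to -17.7 points for the share without loss and -0.0119 to 0.202 bp for the side of loss, so Lats1 alone set the direction of the last. Of single comparisons called as reported, 427 values under alternatives kept their call, 21 lost it and 1 changed sign (Tfam-sg1, share without loss, 9.09 points at a threshold of 30 bp). Comparisons not called as reported were left out of this tally. Gained calls, which the rise from 7 to 12 above includes, were therefore not counted. No paired analysis was possible because each group was 1 library and the labels carry no replicate numbers. Depth limits the EV libraries to shares of 0.0117% to 0.131%, and read length hides longer insertions.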
